A study of Mus musculus with 6 samples.

Results

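The genes described here are 34 genes of the peroxisome, of 53953 rows in each library. They are 21 enzyme, transporter and tether genes of peroxisomal lipid metabolism and 13 genes for peroxins, the proteins that assemble the organelle. They were chosen by name for their known roles and matched by symbol to Ensembl identifiers, all 34 with a match. No measured value entered the choice, but earlier results of these data were known when it was made. Peroxisomes shorten very-long-chain and branched fatty acids, carry out alpha-oxidation and begin the synthesis of ether phospholipids. Chain shortening runs through an oxidase, a bifunctional enzyme and a thiolase in turn, and shortened acyl groups leave as carnitine esters. The enzymes are made in the cytosol and imported by peroxins, which also build the membrane and divide the organelle. In rodent liver, ligands of the fatty acid receptor PPAR alpha are known to raise many of these enzymes.

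Organoids are crypt-derived epithelial cultures, grown here in Matrigel from the proximal small intestine of C57BL/6 wt mice and used at passage 3 to 5. The 3 arachidonic acid libraries came from organoids exposed for 3 days before passaging to this omega-6 polyunsaturated fatty acid, dissolved in ethanol. The 3 vehicle libraries came from organoids given 0.1% ethanol alone. RNA was extracted on day 3 after passaging, so the measurement follows the exposure and a passage in both groups. No source used here states the dose. Values are FPKM, fragments scaled to transcript length and to the fragments assigned in each library, so that levels of different genes can be compared per length.

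The libraries held 35600000 to 50800000 assigned fragments, as the values imply. Whether replicates were grown from different mice or wells is not in the labels, and every p-value then reflects no more than library-to-library spread, which could be technical. Arachidonic acid replicate 1 stood apart from its group. On the first principal component of all tested genes, which held 85.2% of the variance, it lay at 10.2, against 58.1 and 54.6 for arachidonic acid replicates 2 and 3 and -41.6 to -40.4 for the vehicle libraries. The 6 markers of epithelium summed to 4539.8 to 5379 FPKM with arachidonic acid, against 3059 to 3216 FPKM with vehicle, 3 called higher and 1 lower. The 3 called higher were the keratin genes Krt8, Krt18 and Krt19. Epcam was called lower, and Cdh1 and Cldn7 were not called. The highest of 14 stromal, endothelial and immune markers was 0.326 FPKM in any library, and 3 of them were at 0 in all. Limma on log2(FPKM + 1) called 20.8% of 12913 tested genes higher with arachidonic acid and 19.4% lower, 2502 genes, at a Benjamini-Hochberg adjusted p under 0.05. Both numbers changed with the libraries used. The number called lower was 4192 without arachidonic acid replicate 1 and between 1245 and 1491 without any 1 of the other libraries. The number called higher, 2690, was 3554 without arachidonic acid replicate 1, 1712 without arachidonic acid replicate 3 and 1724 without vehicle replicate 1. The median log2 fold change of all tested genes was -0.03. Log2 fold changes below are arachidonic acid minus vehicle on this scale, with limma's standard error (SE) and the p adjusted over all tested genes.

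Most enzyme genes rose with arachidonic acid. With all libraries in the fit, the peroxins were called in each direction at close to the rate of all genes. Of the 20 enzyme, transporter and tether genes tested, 16 rose, 2 fell and 2 did not pass, beside a background of 20.8% of genes called higher, 19.4% called lower and 40.2% called either way. Their median log2 fold change was 0.80 and 7 changed by at least 1 log2 unit in either direction, a size that 10.4% of all tested genes reached. Of the 13 peroxin genes, all tested, 3 rose, 3 fell and 7 did not pass, close to the shares of all genes. Their median was 0.17, or 0.10 over the 12 with a mean of at least 5 FPKM, and none reached 1 log2 unit. After rescaling to TPM the peroxins split into 4 higher and 2 lower. The number called lower was also 2 with no filter, with the replicate block and without any 1 library other than arachidonic acid replicate 1. The number called higher was 6 without arachidonic acid replicate 1, where 27.5% of all tested genes were called higher. The groups stood apart, with no overlap, in 18 of the 20 enzyme genes and 9 of the 13 peroxins, beside 55.0% of all tested genes. By direction these were 16 higher and 2 lower for the enzyme genes, and 6 higher and 3 lower for the peroxins. Of all tested genes, 27.6% were apart and higher and 27.5% apart and lower. No test of the difference between these lists was made, since the genes were chosen with earlier results known. The enzyme genes together summed to 1588, 1639 and 1509.8 FPKM with arachidonic acid, against 884, 947 and 956 FPKM with vehicle. Peroxin genes summed to 387, 408 and 391 FPKM with arachidonic acid, against 365, 361 and 357 FPKM with vehicle. Both sums were above all vehicle libraries in every arachidonic acid library, by 1.7 times for the enzymes and 1.09 times for the peroxins on the means. In bulk RNA, more cells of a type and more RNA per cell cannot be told apart.

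**Figure D1:**
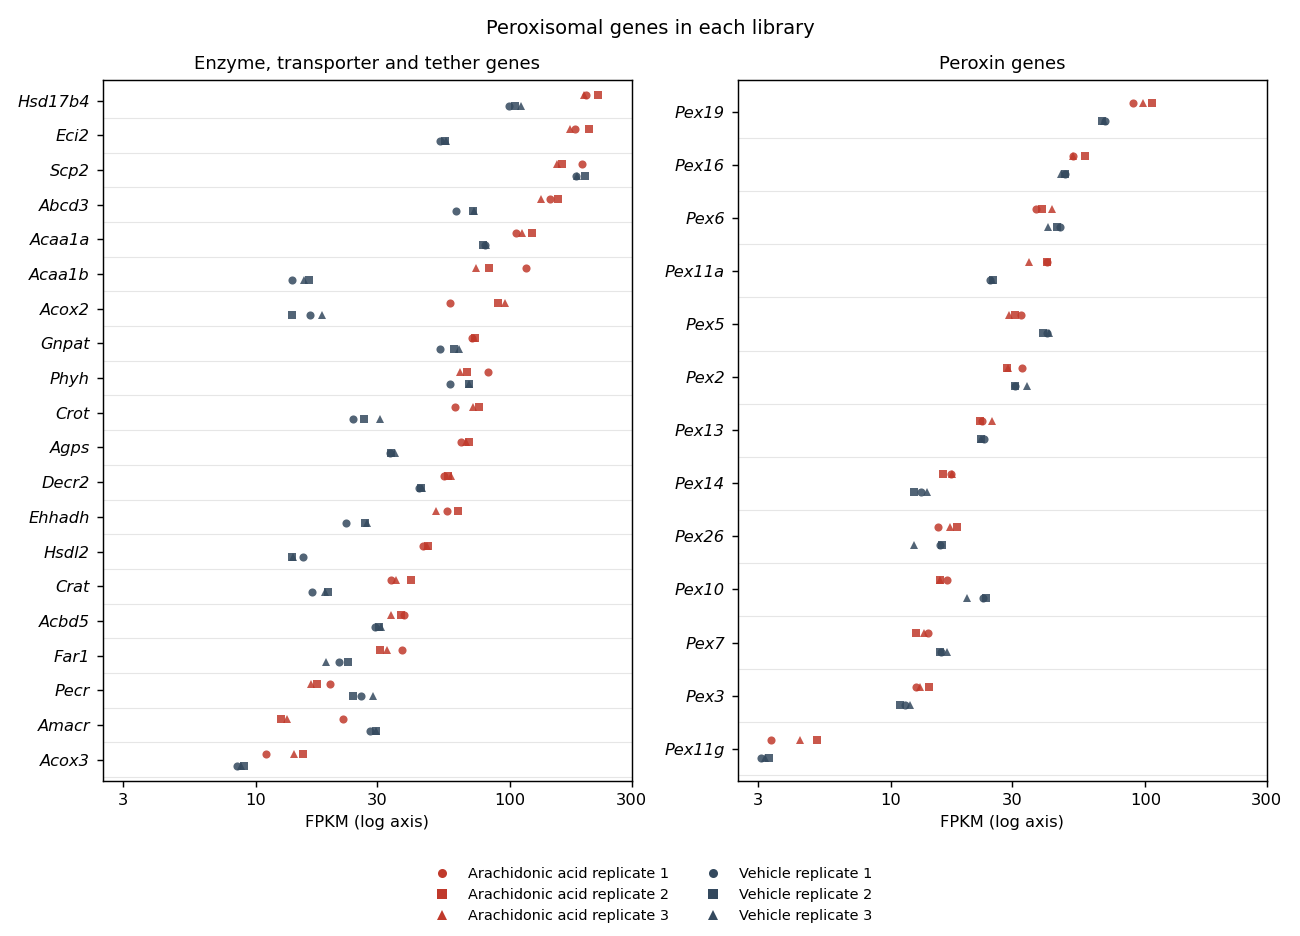
FPKM on a log axis of the 20 tested enzyme, transporter and tether genes and the 13 peroxin genes, 1 point per library, with arachidonic acid in red above vehicle in dark blue and a marker shape per replicate. The groups are apart for 18 of the 20 enzyme genes and 9 of the 13 peroxin genes, beside 55.0% of all tested genes, with wider gaps among the enzymes.

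Acyl-CoA oxidases open each round of chain shortening. Acox2 (ENSMUSG00000021751), which acts on branched fatty acids and bile acid intermediates, was at 57.9, 89.2 and 95.5 FPKM with arachidonic acid, against 16.3, 13.9 and 18.2 FPKM with vehicle. Every arachidonic acid library was above every vehicle library, with replicate 1 the lowest of its group (5.01 times on the means; log2 fold change 2.23, SE 0.20, adjusted p = 0.00092). Acox3, a second branched-chain oxidase, was at 11.0, 15.3 and 14.1 FPKM with arachidonic acid, against 8.41, 8.997 and 8.79 FPKM with vehicle, a smaller step, again with replicate 1 lowest of its group and no overlap (log2 fold change 0.56, adjusted p = 0.013). The call for Acox3 was lost when arachidonic acid replicate 3 or vehicle replicate 1 was left out (adjusted p = 0.052 in the one case and 0.056 in the other).

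The bifunctional enzymes carry out the hydratase and dehydrogenase steps. Hsd17b4 (ENSMUSG00000024507), the D-bifunctional protein used for branched and very-long-chain substrates, was at 198, 221 and 195 FPKM with arachidonic acid, against 98.6, 104 and 111 FPKM with vehicle (log2 fold change 0.96, SE 0.076, adjusted p = 0.00070). Ehhadh, the L-bifunctional protein, was at 56.2, 62.1 and 51.1 FPKM with arachidonic acid, against 22.6, 26.8 and 27.5 FPKM with vehicle (log2 fold change 1.11, adjusted p = 0.0011). For both genes the lowest arachidonic acid library was above the highest vehicle library, and arachidonic acid replicate 2 was the highest of the 6. Hsd17b4 stayed the more abundant of the pair per length in every library.

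Thiolases close the round. Acaa1b (ENSMUSG00000010651) was at 116, 82.8 and 73.2 FPKM with arachidonic acid, against 13.9, 16.2 and 15.5 FPKM with vehicle, the largest ratio among the 34 genes (5.96 times on the means; log2 fold change 2.47, SE 0.17, adjusted p = 0.00044). Its highest value was in arachidonic acid replicate 1, the library that lies nearest to vehicle over all genes. Acaa1a, its close paralog, was at 105, 121 and 111 FPKM with arachidonic acid, against 79.5, 78.5 and 80.4 FPKM with vehicle (log2 fold change 0.49, adjusted p = 0.0032), apart between the groups but with a ratio of 1.42 times. Acaa1b made up 52.4%, 40.5% and 39.7% of the summed FPKM of the pair with arachidonic acid, against 14.9%, 17.1% and 16.2% with vehicle. The longest protein-coding transcripts of the pair are alike over 96% of 1450 aligned bases, and 35.5% of the 50-base stretches of Acaa1b occur exactly in an Acaa1a transcript, so the authors' counting could move fragments between them. Fragments moved between the genes change their sum only through transcript length, but fragments left uncounted because they match both would lower it. No source used here says how such fragments were handled. The sum was 221, 204 and 184 FPKM with arachidonic acid, against 93.4, 94.7 and 95.9 FPKM with vehicle. Scp2, which encodes the sterol carrier protein X thiolase for branched substrates and a lipid transfer protein, did not pass, at 192, 160.2 and 152 FPKM with arachidonic acid, against 181, 197 and 184 FPKM with vehicle (log2 fold change -0.16, unadjusted 95% interval -0.39 to 0.071, adjusted p = 0.22). Its groups overlap through arachidonic acid replicate 1, and without that library it was called lower (log2 fold change -0.26, adjusted p = 0.0076).

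**Figure D2:**
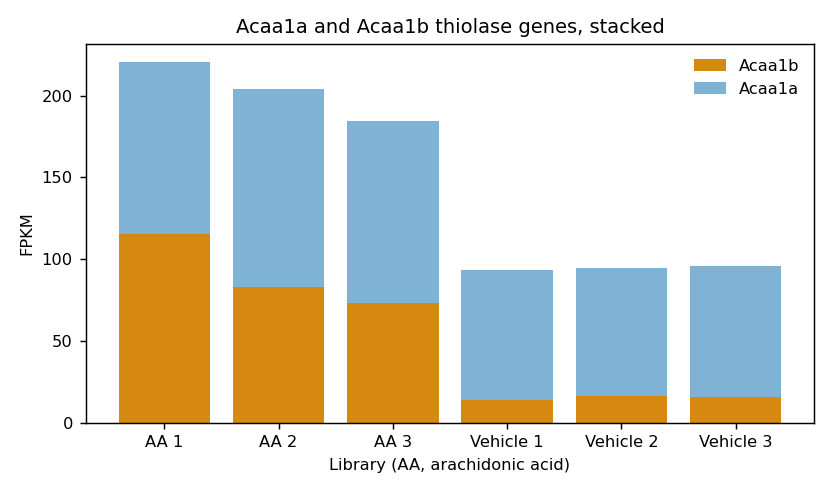
Stacked FPKM of Acaa1b (orange, below) and Acaa1a (blue, above) in each library, AA being arachidonic acid. The stacks reach 184 to 221 FPKM with arachidonic acid and 93.4 to 95.9 FPKM with vehicle, and most of the gap is in the segment assigned to Acaa1b.

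The bases before the start of both thiolase genes are shown, 250 for each. The longest run shared by the transcripts, of 327 bases, could not occur in stretches of this length, so the runs are not compared. Shared runs are marked below as a description only. How often unrelated stretches share runs as long was not tested. The sequences are from RefSeq on GRCm38.p6, 5′ to 3′ on the gene's strand, and capitals mark the longest runs that the 2 stretches share on that strand, of 8 bases.
Acaa1b (chr9:119157094-119157343, minus strand): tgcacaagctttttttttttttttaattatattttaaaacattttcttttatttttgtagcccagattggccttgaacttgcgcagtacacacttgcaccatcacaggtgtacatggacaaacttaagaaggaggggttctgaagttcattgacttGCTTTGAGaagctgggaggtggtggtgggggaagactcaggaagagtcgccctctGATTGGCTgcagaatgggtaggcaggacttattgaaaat
Acaa1a (chr9:119341044-119341293, plus strand): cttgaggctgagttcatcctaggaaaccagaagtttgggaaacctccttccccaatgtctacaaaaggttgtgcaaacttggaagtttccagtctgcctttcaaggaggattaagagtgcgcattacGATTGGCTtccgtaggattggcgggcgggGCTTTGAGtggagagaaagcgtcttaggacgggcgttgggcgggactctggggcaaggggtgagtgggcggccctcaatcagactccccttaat
The shared runs, GATTGGCT and GCTTTGAG, occur once in each stretch and in opposite order.

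The direct repeat bound by PPAR with its partner RXR, named DR1, which is AGGTCA repeated with 1 base of any kind between, was searched on both strands in RefSeq promoter windows of 250 bases before to 50 bases after a gene's start. Windows were found for 28 of the 34 genes, 34 windows in all, with none in the table for Abcd2, Amacr, Crat, Hsd17b4, Pex2 and Pex19. None held the motif exactly or with 1 mismatch, and 1 window held it with 2 mismatches, where 3.86% of all 32851 windows hold it with up to 2. That window belongs to Acox2, and its match lies 9 bases past the first transcribed base of that window. Acox2 also has a window at another start, where the closest match has 3 mismatches. The bases of the match with 2 mismatches are printed in capitals, with flanks, because this gene had the second largest rise of the 34.
Acox2 (chr14:8258809-8258838, minus strand): gctgtcccAGGACAGAGGTGAgtcaagagt
The match is a description of these letters only, and windows without a match say nothing about sites elsewhere.

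Auxiliary enzymes prepare unsaturated and branched chains for the main cycle. Eci2 (ENSMUSG00000021417), an enoyl-CoA isomerase for unsaturated chains, was at 180.3, 204 and 172 FPKM with arachidonic acid, against 52.9, 55.5 and 56.0 FPKM with vehicle (log2 fold change 1.74, SE 0.078, adjusted p = 0.00013). Hsdl2 (ENSMUSG00000028383), a short-chain dehydrogenase with a lipid-transfer domain, was at 45.3, 47.4 and 47.1 FPKM with arachidonic acid, against 15.4, 13.9 and 14.0 FPKM with vehicle and had the smallest adjusted p of the 34 genes (log2 fold change 1.63, SE 0.069, adjusted p = 0.00012). For both genes the replicates of a group lay close together and far from the other group. Decr2, the 2,4-dienoyl-CoA reductase of peroxisomes, was at 54.9, 57.2 and 58.4 FPKM with arachidonic acid, against 43.7, 44.8 and 44.8 FPKM with vehicle, with a smaller difference and no overlap (log2 fold change 0.35, adjusted p = 0.0053).

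Amacr and Pecr were the 2 enzyme genes that fell. Amacr (ENSMUSG00000022244), a racemase that makes methyl-branched acyl-CoAs usable by the branched-chain oxidases, was at 22.1, 12.6 and 13.3 FPKM with arachidonic acid, against 28.1, 29.6 and 29.6 FPKM with vehicle (log2 fold change -0.87, SE 0.20, adjusted p = 0.015). Arachidonic acid replicate 1 lay between the vehicle libraries and the other arachidonic acid libraries, at 0.43 of the distance in mean FPKM from vehicle to replicates 2 and 3. The call for Amacr was lost without arachidonic acid replicate 3 and without vehicle replicates 1, 2 and 3 in turn (adjusted p = 0.053 to 0.054), so the number of enzyme genes called lower was then 1. Pecr (ENSMUSG00000026189), a trans-2-enoyl-CoA reductase that works in the direction of chain synthesis, was at 19.6, 17.4 and 16.5 FPKM with arachidonic acid, against 25.8, 24.1 and 28.8 FPKM with vehicle (log2 fold change -0.53, SE 0.097, adjusted p = 0.0071). All arachidonic acid libraries of Pecr were below all vehicle libraries, and its call held in all 14 alternatives. Without arachidonic acid replicate 1, 3 enzyme genes were called lower, Scp2 being the third. Phyh, the phytanoyl-CoA hydroxylase of alpha-oxidation, did not pass, at 81.8, 68.0 and 63.6 FPKM with arachidonic acid, against 58.3, 68.6 and 68.8 FPKM with vehicle (log2 fold change 0.12, 95% interval -0.15 to 0.39, adjusted p = 0.43), and its groups overlap.

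Genes of import across the membrane and of carnitine ester export rose as well. Abcd3 (ENSMUSG00000028127), a transporter subunit also called PMP70 that carries acyl-CoAs into the organelle, was at 143, 154 and 133 FPKM with arachidonic acid, against 61.0, 71.6 and 72.0 FPKM with vehicle (log2 fold change 1.06, SE 0.092, adjusted p = 0.00087). Abcd2, a related transporter subunit, was listed at 0 in all 6 libraries and was not tested. A 0 here may be a failed estimate rather than a low level, since Ide, a widely expressed protease gene, was also listed at 0 in 5 libraries and at 0.0097 FPKM in the other. Crot (ENSMUSG00000003623), the carnitine octanoyltransferase that hands medium chains on to mitochondria, was at 60.7, 75.2 and 71.6 FPKM with arachidonic acid, against 24.0, 26.7 and 30.8 FPKM with vehicle (log2 fold change 1.32, SE 0.12, adjusted p = 0.00092). Crat, the carnitine acetyltransferase found in peroxisomes and mitochondria, was at 34.1, 40.7 and 35.6 FPKM with arachidonic acid, against 16.7, 19.3 and 18.7 FPKM with vehicle (log2 fold change 0.98, adjusted p = 0.0011). For Abcd3, Crot and Crat the groups were far from overlap, with every ratio of means at or above 2.02 times. Acbd5, which binds acyl-CoA and tethers peroxisomes to the endoplasmic reticulum, was at 38.1, 37.2 and 34.0 FPKM with arachidonic acid, against 29.3, 30.5 and 31.2 FPKM with vehicle, a small step (log2 fold change 0.25, adjusted p = 0.027). The call for Acbd5 was lost without arachidonic acid replicate 2 and without vehicle replicates 1, 2 and 3 in turn (adjusted p = 0.063 to 0.094), and with the replicate number as a block (adjusted p = 0.074).

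All 3 genes of ether lipid synthesis rose. Agps (ENSMUSG00000042410), the alkyl-glycerone-phosphate synthase that forms the ether bond, was at 64.0, 68.9 and 67.0 FPKM with arachidonic acid, against 33.6, 34.0 and 35.4 FPKM with vehicle (log2 fold change 0.94, SE 0.061, adjusted p = 0.00041). Far1, the reductase that supplies the fatty alcohol, was at 37.6, 30.9 and 32.8 FPKM with arachidonic acid, against 21.3, 22.96 and 18.8 FPKM with vehicle (log2 fold change 0.66, adjusted p = 0.0046). Gnpat, the acyltransferase of the step before Agps, was at 71.1, 73.1 and 72.0 FPKM with arachidonic acid, against 53.2, 60.04 and 63.1 FPKM with vehicle (log2 fold change 0.29, adjusted p = 0.023). The groups do not overlap for any of the 3, and on the log2 scale the difference was largest for Agps and smallest for Gnpat. The call for Gnpat was lost without arachidonic acid replicates 2 and 3 and without vehicle replicates 1 and 2 in turn (adjusted p = 0.062 to 0.076).

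**Figure D3:**
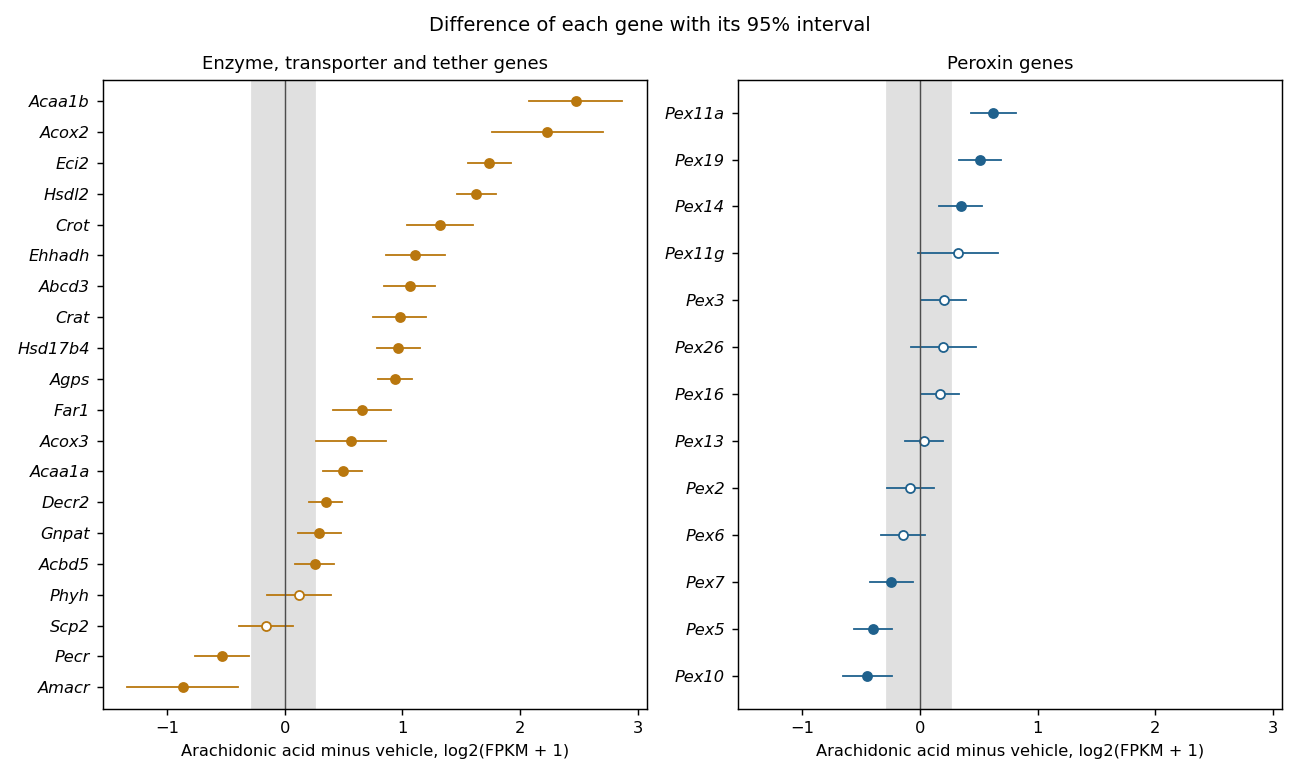
Arachidonic acid minus vehicle on the log2(FPKM + 1) scale for each tested gene, with 95% intervals from limma, filled where the adjusted p was under 0.05, and the range between the quartiles of all tested genes in grey (-0.28 to 0.26). Enzyme genes reach from -0.87 for Amacr to 2.47 for Acaa1b, while peroxins stay between -0.45 for Pex10 and 0.62 for Pex11a.

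Among the peroxins of membrane assembly and division, Pex11a and Pex19 rose and Pex3, Pex16 and Pex11g did not pass. Pex11a (ENSMUSG00000030545), which elongates the membrane before division and is known in rodents as the inducible form of its family, was at 41.0, 40.9 and 34.9 FPKM with arachidonic acid, against 24.4, 25.2 and 25.00 FPKM with vehicle (log2 fold change 0.62, SE 0.081, adjusted p = 0.0025). Its arachidonic acid replicate 1 was level with replicate 2, and no library overlapped the other group. Pex11g, a relative with a far lower level per length, was at 3.37, 5.12 and 4.41 FPKM with arachidonic acid, against 3.08, 3.31 and 3.20 FPKM with vehicle and did not pass (log2 fold change 0.32, 95% interval -0.019 to 0.66, adjusted p = 0.11). Pex19 (ENSMUSG00000003464), the carrier of new membrane proteins, was at 89.6, 106 and 97.6 FPKM with arachidonic acid, against 69.2, 67.5 and 68.5 FPKM with vehicle (log2 fold change 0.51, SE 0.075, adjusted p = 0.0037). Its membrane partners Pex3 and Pex16 did not pass, Pex3 at 12.5, 14.2 and 13.1 FPKM with arachidonic acid, against 11.4, 10.9 and 11.9 FPKM with vehicle and Pex16 at 51.8, 58.1 and 51.8 FPKM with arachidonic acid, against 48.5, 48.5 and 46.4 FPKM with vehicle. Every arachidonic acid library of both was above the vehicle libraries by a small margin (log2 fold change 0.20, unadjusted 95% interval 0.011 to 0.39, adjusted p = 0.084 for Pex3 and 0.17, 0.0041 to 0.33 and 0.092 for Pex16).

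Both receptors that bring enzymes to the organelle fell. Pex5 (ENSMUSG00000005069), which reads the C-terminal signal of most matrix enzymes, was at 32.4, 30.7 and 28.99 FPKM with arachidonic acid, against 41.1, 39.6 and 41.7 FPKM with vehicle (log2 fold change -0.40, SE 0.067, adjusted p = 0.0055). Pex7, which reads the N-terminal signal of a few enzymes, Agps, Phyh and the Acaa1 thiolases among them, was at 14.0, 12.5 and 13.5 FPKM with arachidonic acid, against 15.7, 15.6 and 16.6 FPKM with vehicle (log2 fold change -0.24, adjusted p = 0.042). Every arachidonic acid library was below every vehicle library for both receptors, and mean FPKM fell by 24.8% for Pex5 and fell by 16.5% for Pex7. The call for Pex7 was lost in 8 of the 14 alternatives, among them the omission of any 1 library except arachidonic acid replicate 1 (adjusted p = 0.097 to 0.13), the scaling to TPM (adjusted p = 0.096) and the replicate block (adjusted p = 0.091). Agps and both Acaa1 genes rose beside the lower Pex7, and Phyh did not pass.

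Of the docking and receptor recycling genes, Pex14 rose, Pex10 fell and Pex13, Pex2, Pex6 and Pex26 did not pass. Pex14 (ENSMUSG00000028975), the docking subunit that receives loaded Pex5, was at 17.3, 16.0 and 17.4 FPKM with arachidonic acid, against 13.1, 12.3 and 13.9 FPKM with vehicle (log2 fold change 0.34, SE 0.077, adjusted p = 0.014), with no overlap. Its call was lost without arachidonic acid replicate 3 and without vehicle replicates 1 and 2 in turn (adjusted p = 0.052 to 0.060). Pex13, its partner, was at 22.8, 22.3 and 24.9 FPKM with arachidonic acid, against 23.1, 22.6 and 22.5 FPKM with vehicle (log2 fold change 0.034, 95% interval -0.13 to 0.20). Pex10 (ENSMUSG00000029047), a ubiquitin ligase subunit that marks Pex5 for recycling, was at 16.6, 15.6 and 15.5 FPKM with arachidonic acid, against 23.01, 23.6 and 19.8 FPKM with vehicle (log2 fold change -0.45, SE 0.087, adjusted p = 0.0086), below vehicle in every arachidonic acid library. Pex2, a second subunit of that ligase, was at 32.8, 28.6 and 28.8 FPKM with arachidonic acid, against 30.6, 30.8 and 34.2 FPKM with vehicle and did not pass (log2 fold change -0.082, 95% interval -0.28 to 0.11). Pex6, an ATPase that pulls Pex5 back out, was at 37.3, 39.3 and 43.0 FPKM with arachidonic acid, against 46.0, 45.0 and 41.3 FPKM with vehicle (log2 fold change -0.14, 95% interval -0.33 to 0.045). Pex26, its membrane anchor, was at 15.2, 18.1 and 17.0 FPKM with arachidonic acid, against 15.5, 15.8 and 12.3 FPKM with vehicle (log2 fold change 0.20, 95% interval -0.081 to 0.48). Neither passed, and the groups of both overlap. Without arachidonic acid replicate 1 the number of peroxins called higher was 6, with Pex3, Pex16 and Pex11g passing as well (adjusted p = 0.031, 0.035 and 0.0072), while 27.5% of all tested genes were then called higher. Overlapping genes on the opposite strand make some of these values uncertain, since no source used here says whether the counting used strand. Gm44775 covers 41.1% of the exonic bases of Pex11g and Gm17029 covers 28.3% of those of Pex14, the largest such shares among the 34 genes, and D230017M19Rik covers 11.5% of those of Pecr and Dlec1 11.4% of those of Acaa1b.

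**Figure D4:**
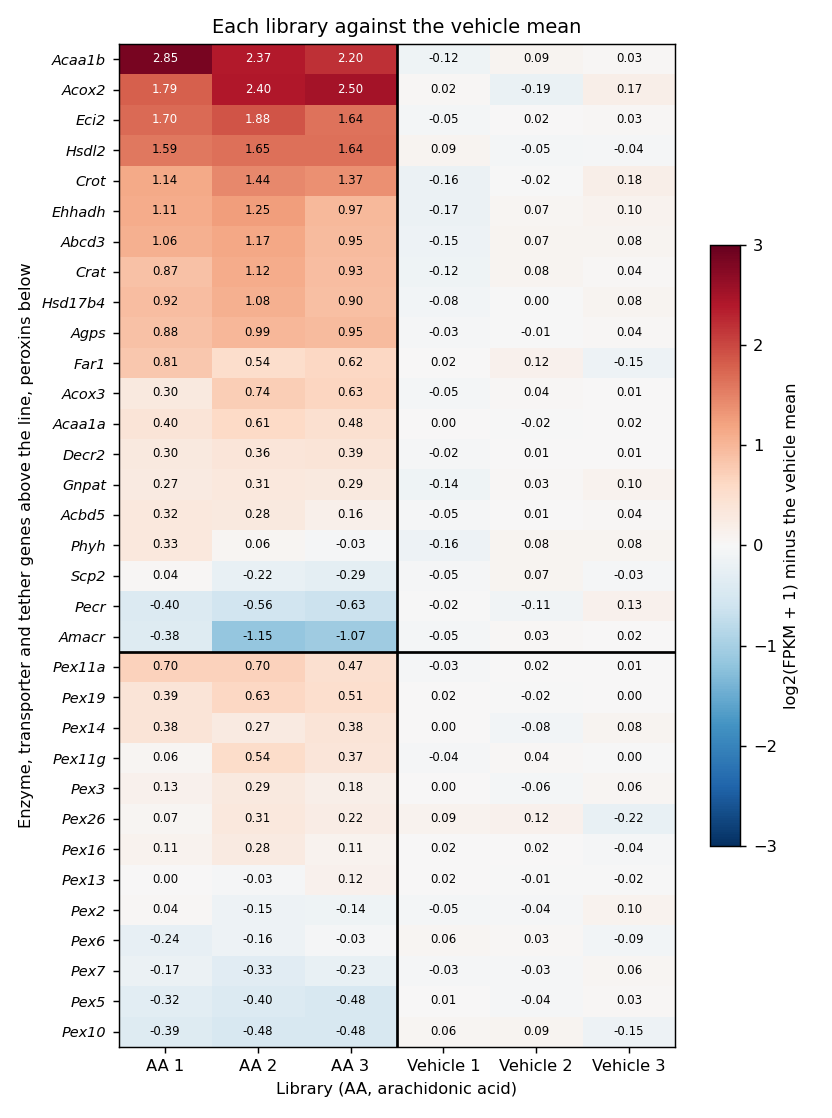
Each library's log2(FPKM + 1) minus the vehicle mean for the 33 tested genes, enzyme genes above the black line and peroxins below, arachidonic acid (AA) libraries on the left and vehicle on the right. Arachidonic acid replicate 1 is highest for Acaa1b at 2.85, and is nearer to vehicle than the rest of its group for Acox2 at 1.79 and Amacr at -0.38.

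Arachidonic acid replicate 1 lay between the vehicle mean and the mean of its group's other libraries for 15 of the 20 tested enzyme genes, against 56.5% of all tested genes. These sets are unlike, since 18 of the 20 enzyme genes were called, against 40.2% of all tested genes. On a scale of FPKM where 0 is the vehicle mean and 1 is the mean of the other 2 arachidonic acid libraries, its median position was 0.89 over the 18 called enzyme genes, which spread between 0.38 and 1.60, and 0.80 over the 6 called peroxins. Over all called genes it was 0.62. The test that made these calls included replicate 1, so the positions are chosen in part by its own values, and no test of their difference was made. Its position was above 1 for Acaa1b, Far1, Acbd5, Pex11a and Pex14 among the called genes, and lowest for Acox3, at 0.38, and Amacr. Without this library 16 enzyme genes were called higher, as with it, while the share of all tested genes called higher was 27.5%, against 20.8% with it.

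Other genes of the organelle, taken from a list of 55 outside the 34, were called higher more often than lower. Of 42 tested, 17 rose, 8 fell and 17 did not pass, with a median of 0.11, where 20.8% of all tested genes were called higher and 19.4% lower. The number that fell is thus near the all-gene share. Among the 19 tested lipid genes 8 rose and 3 fell. Among the 11 tested genes of assembly and division 3 rose and 1 fell, which is near or under the all-gene shares. Aldh3a2, the fatty aldehyde dehydrogenase with a peroxisomal form, was at 216, 302 and 257 FPKM with arachidonic acid, against 61.8, 65.4 and 69.1 FPKM with vehicle (log2 fold change 1.95, SE 0.12, adjusted p = 0.00041). Pxmp4, a peroxisomal membrane protein, was at 52.5, 55.1 and 53.9 FPKM with arachidonic acid, against 21.9, 23.3 and 23.7 FPKM with vehicle (log2 fold change 1.20, SE 0.063, adjusted p = 0.00027). Ech1, a dienoyl-CoA isomerase, and Nudt7, which cleaves coenzyme A derivatives in peroxisomes, had log2 fold changes of 1.03 and 0.82 (adjusted p = 0.0036 and 0.0014). Gstk1, a glutathione transferase found in peroxisomes and mitochondria, was at 29.8, 47.0 and 50.2 FPKM with arachidonic acid, against 12.9, 13.5 and 12.7 FPKM with vehicle (log2 fold change 1.59, SE 0.19, adjusted p = 0.0019). For these 5 genes every arachidonic acid library was above every vehicle library. The number that fell changed with the libraries used, as it did over all tested genes. It was 13 without arachidonic acid replicate 1, where 32.4% of all tested genes were called lower. It was 3 without vehicle replicate 3, and 2 without arachidonic acid replicate 2 or 3 or vehicle replicate 1 or 2. In the fits without 1 of these other libraries, 1245 to 1491 of all tested genes were called lower, against 2502 with all libraries.

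Ppard and Pparg, nuclear receptors for fatty acids, rose, and their relative Ppara did not pass. Of 9 tested genes of lipid-sensing receptors and their partners, 2 rose, 4 fell and 3 did not pass, beside 20.8% of all genes called higher and 19.4% lower. The 4 were Hnf4a, called in all 14 alternatives, and Esrra, Rxrb and Rxra, called in 9, 8 and 6 of the 14, all named after their values were seen. The calls for these 3 were lost without arachidonic acid replicates 2 and 3 and vehicle replicates 1 and 2 in turn (adjusted p = 0.064 to 0.093, 0.086 to 0.12 and 0.070 to 0.13), and that for Rxra also without vehicle replicate 3. Ppara was at 13.1, 9.01 and 7.03 FPKM with arachidonic acid, against 12.1, 12.6 and 11.9 FPKM with vehicle and did not pass (log2 fold change -0.34, 95% interval -0.80 to 0.13, adjusted p = 0.20). Without arachidonic acid replicate 1, Ppara was called lower (log2 fold change -0.56, adjusted p = 0.0025). Ppard was at 35.0, 63.7 and 61.3 FPKM with arachidonic acid, against 15.4, 14.2 and 14.7 FPKM with vehicle (log2 fold change 1.74, SE 0.22, adjusted p = 0.0024). Pparg was at 37.5, 57.0 and 59.9 FPKM with arachidonic acid, against 24.3, 22.2 and 24.9 FPKM with vehicle (log2 fold change 1.05, SE 0.17, adjusted p = 0.0053). Replicate 1 was the lowest arachidonic acid library for Ppard and Pparg, and the highest for Ppara.

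Markers of several intestinal cell types differed between the groups as well, and their part in the results above was not tested. The 12 markers of enterocytes, the absorptive cells, summed to 6552, 3167 and 2659.8 FPKM with arachidonic acid, against 3419.6, 4253 and 3659.7 FPKM with vehicle. Much of that sum was Fabp1, a fatty acid-binding protein, at 4094, 1984 and 1617 FPKM with arachidonic acid, against 313, 412 and 339 FPKM with vehicle, and of the 12 markers 2 rose and 6 fell, 3 of these 8 in every alternative that tested them. The 8 goblet cell markers summed to 369.7 to 722 FPKM with arachidonic acid, against 1616 to 2045 FPKM with vehicle, the 8 Paneth cell markers to 462 to 993 FPKM with arachidonic acid, against 1945 to 2905 FPKM with vehicle and the 8 enteroendocrine markers to 117 to 158 FPKM with arachidonic acid, against 609 to 718 FPKM with vehicle. Each of these 3 sums was lower in every arachidonic acid library than in any vehicle library, with 5 of 6, 5 of 8 and 8 of 8 tested members called lower, beside 19.4% of all genes. Of these, 3 goblet, 3 Paneth and 8 enteroendocrine markers were called in every alternative that tested them. The Paneth marker Pla2g2a was called higher, but in only 6 of 13 alternatives. Crypt stem cell markers summed to 615 to 779 FPKM with arachidonic acid, against 1059 to 1112 FPKM with vehicle, with 1 called higher and 5 called lower of 8. Tuft cell markers summed to 3.05 to 9.75 FPKM with arachidonic acid, against 2.74 to 5.00 FPKM with vehicle, with 2 of 8 tested and neither called.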

How the data were processed

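RNA-seq values were deposited as FPKM per gene and library, a unit read from the values, since each times a mean GENCODE M21 transcript length gave whole fragments (within 0.1) for 96.3% to 96.8% of low values. Per the submitters' processing notes the tools were featureCounts 1.5.0-p3, HISAT2 2.0.5 and StringTie 1.3.3b, with no role, strand setting or build stated there. Fold changes are on log2(FPKM + 1), a scale that understates the change of low genes. Genes averaging 1 FPKM or more in all 6 libraries together were tested with limma 3.58.1 (R 4.3.3, trend, two-sided), 3 libraries per group, with no covariate and Benjamini-Hochberg adjustment over all 12913 genes at 0.05. The fit was tested on simulated data. No library duplicated another. Members and lists were chosen with earlier results of these data known, and lists are given by counts and medians only. Full statistics go to up to 8 enzyme genes and 5 peroxins with the smallest adjusted p and to genes called against most of their class. Alternatives were the use of 0.1 as the pseudocount, a filter at 5 FPKM or none, scaling by TPM, quantiles or median-of-ratios, a replicate block, omission of each library, and limma-voom run on the recovered fragments. Positions of replicate 1 are in FPKM. Acaa1 transcripts were compared in GENCODE M21, and promoters were taken from RefSeq. Protein sequences were not used here. Some genes counted in the list of other organelle genes are not reported here by name.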

Additional observations from a re-analysis of the deposited data

How the results depend on the processing

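Each result was recomputed under 14 alternatives, except Pex11g, which the filter at 5 FPKM removes and which has 13. Over the 33 tested genes of the 34, no log2 fold change of a called gene turned round. Of the 33 genes, 10 changed their call in at least 1 alternative, in 26 combinations by losing it and in 5 by gaining it, against 430 in which the call was as reported. Without 1 library at a time, 13 to 16 enzyme genes were called higher and 1 to 3 lower, with a median of 0.77 to 0.83. For the peroxins the ranges were 2 to 6 higher, 2 to 3 lower and a median of 0.090 to 0.20. For the other genes of the organelle they were 15 to 19, 2 to 13 and 0.090 to 0.16, and for all genes 1712 to 3554 and 1245 to 4192. Rescaling to TPM moved the median to 0.86 for the enzymes, 0.17 for the other genes of the organelle and 0.027 for all tested genes, which had been -0.029. The other genes of the organelle had 5 called lower and a median of 0.056 with no filter, and a median of 0.17 with a mean of at least 5 FPKM, a filter that moved the peroxin median to 0.10. TPM divides by the summed FPKM of a library, which was 742576 to 755441 with arachidonic acid and 771986 to 798415 with vehicle. The filters change which genes are counted. At 5 FPKM 12 peroxins remained of 13, and with no filter 53 other genes of the organelle were tested rather than 42. Why the summed FPKM differed between the groups was not tested. Deviations from the group mean had correlations of -0.081, 0.21 and -0.062 between libraries of the same replicate number. Between libraries of different numbers they were -0.18 to 0.19. Deviations from a mean of 3 libraries cancel out, so this check cannot decide whether the numbers pair the libraries. With the replicate number as a block, 15 enzyme genes were called higher and 2 lower, 3 peroxins higher and 2 lower, and 2263 of all genes higher and 1998 lower. Limma-voom on the recovered fragments called 2583 of all genes higher and 2469 lower. Abcd2, listed at 0, allows no statement.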

Other observations

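The other genes of the organelle that were listed apart from lipid metabolism moved in both directions. That list holds the membrane proteins Pxmp2, Pxmp4 and Mpv17l beside enzymes. It also holds Ephx2, an epoxide hydrolase that could be counted with lipid metabolism. Of 12 tested, 6 rose and 4 fell, beside 20.8% and 19.4% of all tested genes. Of these 10 calls, 6 held in every alternative that tested the gene. The calls for Ephx2 and Prdx5, both higher, held in 8 and 11 of 14. Those for Tysnd1 and Pxmp2, a protease and a membrane protein of the organelle called lower, held in 9 of 14 each, and were lost without arachidonic acid replicates 2 and 3 and vehicle replicates 1 and 2 in turn, and for Tysnd1 also without vehicle replicate 3 (adjusted p = 0.060 to 0.085 for Tysnd1 and 0.055 to 0.081 for Pxmp2). Cat, the catalase that removes hydrogen peroxide made by the oxidases, was at 219, 238 and 269 FPKM with arachidonic acid, against 139, 148 and 151 FPKM with vehicle (log2 fold change 0.72, SE 0.088, adjusted p = 0.0021). Idh1, an isocitrate dehydrogenase that yields NADPH in cytosol and peroxisomes, was at 353, 662 and 705 FPKM with arachidonic acid, against 191, 193 and 207 FPKM with vehicle (log2 fold change 1.47, SE 0.25, adjusted p = 0.0057). Arachidonic acid replicate 1 was the lowest of its group for both and still above every vehicle library.

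The enzymes named next were chosen after their values were seen. Pipox, which oxidises sarcosine and pipecolic acid, was at 21.9, 3.12 and 4.10 FPKM with arachidonic acid, against 72.0, 87.2 and 77.4 FPKM with vehicle (log2 fold change -3.35, adjusted p = 0.0069). Dao, the D-amino acid oxidase, was at 1.90, 0.440 and 0.292 FPKM with arachidonic acid, against 4.07, 3.69 and 4.08 FPKM with vehicle (log2 fold change -1.50, adjusted p = 0.0097). Paox, a polyamine oxidase, was at 42.5, 83.4 and 74.1 FPKM with arachidonic acid, against 28.1, 28.2 and 26.5 FPKM with vehicle (log2 fold change 1.19, adjusted p = 0.0090). Of these 3 oxidases of amino acids and amines, Pipox and Dao fell and Paox rose, and in each the value of arachidonic acid replicate 1 was the nearest of its group to vehicle. Of the other lipid genes, Slc27a2, an acyl-CoA synthetase and fatty acid transporter, Far2, a fatty acyl-CoA reductase, and Dhrs4, a short-chain dehydrogenase, were the 3 called lower. Far1 and Far2, related reductases for fatty alcohols, had log2 fold changes of 0.66 and -1.39 (adjusted p = 0.0046 and 0.038). Far2 was at 22.7, 6.68 and 6.91 FPKM with arachidonic acid, against 25.7, 27.9 and 32.8 FPKM with vehicle, so its arachidonic acid replicate 1 lay close to vehicle. The calls for Slc27a2, Far2 and Dhrs4 were lost with no filter and without any 1 library other than arachidonic acid replicate 1 (adjusted p = 0.079 to 0.089 for Slc27a2, 0.094 to 0.11 for Far2 and 0.077 to 0.096 for Dhrs4), and that for Far2 also with the replicate block (adjusted p = 0.053).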
